A study of Mus musculus with 4 samples.

Results

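Transcripts of 10 enzymes of serine synthesis and folate-dependent one-carbon metabolism were examined in mouse T cells by RNA sequencing. The enzymes were chosen by name, as the genes Phgdh, Psat1, Psph, Shmt1, Shmt2, Mthfd1, Mthfd1l, Mthfd2, Gldc and Tyms, and all 10 were found among the 16338 gene rows of the deposited tables. The T cells carried the TRP1high or the TRP1low T cell receptor, and each had been stimulated for 48 h by B cells loaded with the M9 or the K8 peptide. Cells were separated from the B cells by flow sorting before total RNA was prepared, which gave 4 groups: TRP1high with M9, TRP1high with K8, TRP1low with M9 and TRP1low with K8. Each group was 1 library. Values therefore carry no replicate error, and a difference between 2 libraries could not be tested. The labels do not state the strain, age or number of the mice behind each library, nor how each receptor was introduced.

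Serine is made from a glycolytic intermediate in a short chain of reactions, and its side-chain carbon is handed to folate, in mitochondria and in the cytosol by separate sets of enzymes. The folate-bound carbon is spent on purines and on thymidylate, the building blocks that a dividing cell needs for new DNA. Activated T cells are known to raise this pathway as they leave rest and begin to divide, and the mitochondrial branch is among the most strongly induced in such cells.

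The libraries held 41.5, 40.5, 40.3 and 29.6 M estimated reads in TRP1high with M9, TRP1high with K8, TRP1low with M9 and TRP1low with K8. The T cell markers fixed for the check were abundant in every library, with summed levels of log2 16.75 to 17.10, and none of the 8 was at 0. Of the 12 B cell markers, 3 were at 0 in TRP1high with M9 and 1 in TRP1low with M9, and the summed level was log2 7.43 and 10.97 in TRP1high with M9 and K8 and 8.54 and 10.43 in TRP1low with M9 and K8. TRP1low with K8 also held the most myeloid transcript (summed level log2 6.84, against 3.46 to 4.43 in the other libraries) and erythroid transcript (8.41, against 2.06 to 3.39), with Hbb-bs, a haemoglobin chain gene, at log2 7.75. In these bulk libraries, fewer cells of a type and less RNA per cell cannot be told apart.

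The 9 enzymes other than Gldc were abundant and close to level in all 4 libraries. Their levels, given throughout as log2 of the normalized count plus 1, lay within 0.28 to 0.56 log2 units of each other across the libraries, and each had at least 2538 estimated reads in every library. A range of under 2-fold over the 4 libraries was found for 9 of the 10 enzymes, against 52.7% of all 16100 genes tested and 82.8% of the 5780 genes whose mean reached 1000 normalized counts, the class to which these 9 belong. Together the 10 enzymes took 0.25% of all reads in TRP1high with M9, 0.292% in TRP1high with K8, 0.291% in TRP1low with M9 and 0.276% in TRP1low with K8. The 95% Wilson intervals of these shares, which cover counting error only, ran from 0.2484 to 0.2514%, 0.2903 to 0.2936%, 0.2898 to 0.2931% and 0.2739 to 0.2777%, so that TRP1high with M9 held the smallest share.

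**Figure D1:**
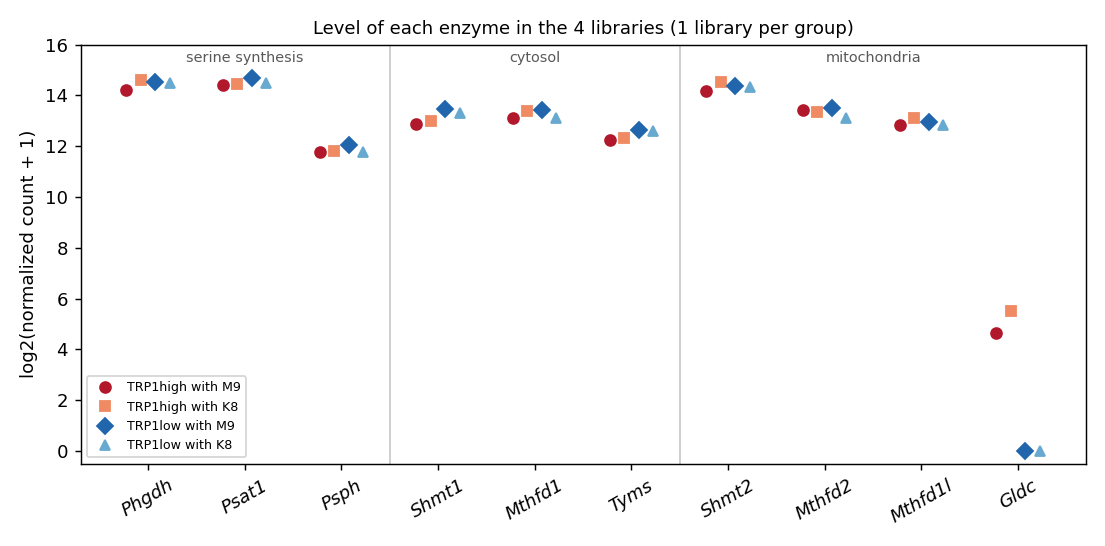
Level of each of the 10 enzymes, as log2 of the normalized count plus 1 (vertical axis), in the 4 libraries, 1 point per library and no error bars because each group is 1 library. Symbols of 9 enzymes sit within 0.56 of each other, while Gldc is at 4.63 and 5.52 in TRP1high with M9 and K8 and at 0 in both TRP1low libraries.

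Levels of different enzymes were compared as normalized counts per kilobase of merged exon length. Phgdh, phosphoglycerate dehydrogenase, which commits the glycolytic intermediate to serine, was the highest, at 7690, 10100, 9360 and 9280 per kilobase in TRP1high with M9, TRP1high with K8, TRP1low with M9 and TRP1low with K8. Shmt2, the mitochondrial serine hydroxymethyltransferase, followed with 5990, 7520, 6810 and 6720, and Psat1, phosphoserine aminotransferase, the next step of serine synthesis, with 5150, 5330, 6260 and 5390. These 3 enzymes lay between percentile 96.8 and percentile 98.4 of all genes tested in every library on this scale. Mthfd2, the mitochondrial methylene-tetrahydrofolate dehydrogenase and cyclohydrolase, held the fourth place in 3 libraries, at 3180, 3000 and 3290 in TRP1high with M9, TRP1high with K8 and TRP1low with M9, and lay just under Shmt1 in TRP1low with K8, at 2520 against 2640. Psph, phosphoserine phosphatase, the last step of serine synthesis, and Tyms, thymidylate synthase, were the lowest of the 9, at 802 to 981 and 789 to 1050 per kilobase. The order of the enzymes, at the top as well as among neighbours such as Shmt1, Mthfd1 and Mthfd1l, depends on the annotated exon length. Before division by length, Psat1 had more normalized counts than Phgdh with M9, at 21909 against 19124 in TRP1high and 26628 against 23277 in TRP1low. Without replicates the order could not be set against a spread between cultures.

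In serine synthesis, Phgdh had a level of 14.22 in TRP1high with M9 and 14.62 in TRP1high with K8, and of 14.51 in TRP1low with M9 and 14.49 in TRP1low with K8. TRP1high with M9 was the lowest library and TRP1high with K8 the highest. Psat1 had a level of 14.42 and 14.47 in TRP1high with M9 and K8, and of 14.70 and 14.49 in TRP1low with M9 and K8, so that TRP1low with M9 stood above the rest. Psph was likewise highest in TRP1low with M9, at a lower level, with 11.78 and 11.80 in TRP1high with M9 and K8 and 12.05 and 11.76 in TRP1low with M9 and K8.

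In the cytosol, Shmt1, the cytosolic serine hydroxymethyltransferase, had a level of 12.89 and 12.98 in TRP1high with M9 and K8, and of 13.46 and 13.32 in TRP1low with M9 and K8. Both TRP1high libraries were thus below both TRP1low libraries. Mthfd1, the trifunctional folate enzyme of the cytosol, had a level of 13.10 and 13.38 in TRP1high with M9 and K8, and of 13.44 and 13.11 in TRP1low with M9 and K8, with no separation by receptor or by peptide. Tyms, which methylates the DNA precursor dUMP with a folate-bound carbon, had a level of 12.23 and 12.33 in TRP1high with M9 and K8, and of 12.64 and 12.60 in TRP1low with M9 and K8, again with TRP1high below TRP1low. Both TRP1high libraries were below both TRP1low libraries for 3 enzymes (Psat1, Shmt1 and Tyms), against a background of 25.1% of genes tested.

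In mitochondria, Shmt2 had a level of 14.19 and 14.51 in TRP1high with M9 and K8, and of 14.37 and 14.35 in TRP1low with M9 and K8. Mthfd1l, the mitochondrial formyl-tetrahydrofolate synthetase, followed the same order, with 12.82 and 13.12 in TRP1high with M9 and K8 and 12.94 and 12.84 in TRP1low with M9 and K8. Mthfd2 had a level of 13.44 and 13.35 in TRP1high with M9 and K8, and of 13.49 and 13.10 in TRP1low with M9 and K8. It was the 1 enzyme of the 10 with both M9 libraries above both K8 libraries, an order that 16.8% of genes tested showed, and 0 enzymes had the opposite order, which 15.7% showed. TRP1low with M9 was the highest library for 6 of the 10 enzymes, against 22.2% of genes tested.

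Gldc, the decarboxylase subunit of the mitochondrial glycine cleavage system, was the 1 enzyme that separated the receptors by more than 2-fold. It had 24 estimated reads in TRP1high with M9 and 45 in TRP1high with K8, against 0 in TRP1low with M9 and 0 in TRP1low with K8. Against a floor of 3 reads per library for TRP1low, Gldc was 7.55-fold higher in TRP1high with M9 and 10.9-fold higher with K8. These ratios take the TRP1high reads as exact and are not lower limits. The exact counting intervals of the log2 difference had lower limits of 2.51 with M9 and 3.09 with K8. A count of 0 in both TRP1low libraries with more than 3 reads in both TRP1high libraries was found for 53 genes, or 0.329% of those tested. The gene lies on chromosome 19 (30098447 to 30175429, GRCm38), and its 3.90 and 7.37 normalized counts per kilobase in TRP1high with M9 and K8 were far below the levels of the other 9 enzymes. It was the 1 enzyme with both TRP1high libraries above both TRP1low libraries, an order that 22.7% of genes tested showed. Markers of other cell types differed between the same libraries. The summed B cell markers given above were highest in TRP1high with K8 and lowest in TRP1high with M9. Cd22, a B cell receptor in that list, had 21 and 187 reads in TRP1high with M9 and K8 and 2 and 3 in TRP1low with M9 and K8. The 3 measured NK and gamma delta T cell markers summed to log2 9.15 and 10.64 in TRP1high with M9 and K8 and to 9.64 and 10.23 in TRP1low with M9 and K8. Among them Tcrg-C1, a gamma chain constant gene, had 106 and 910 reads in TRP1high with M9 and K8 and 2 and 7 in TRP1low with M9 and K8. Cd22 and Tcrg-C1, which were picked after their values were seen, thus had the order of Gldc by receptor. The other markers of their lists did not. With M9, 1 of the 12 B cell markers was higher in TRP1high than in TRP1low and 10 were lower. Trdc had 469 and 677 reads in TRP1high with M9 and K8 and 758 and 862 in TRP1low with M9 and K8. Klrb1c had 0 and 11 reads in TRP1high with M9 and K8 and 1 and 7 in TRP1low with M9 and K8. The part of other cell types in the Gldc reads was not tested. The pseudogene Rpl31-ps20, which lies inside Gldc on the other strand, had 5 and 8 reads in TRP1high with M9 and K8 and 7 and 1 in TRP1low with M9 and K8, and the sources do not say whether the counting used strand. The partner genes of the complex were at other levels: Gcsh, the lipoyl carrier, at log2 11.40 and 11.66 in TRP1high with M9 and K8 and 11.92 and 12.05 in TRP1low with M9 and K8, and Amt, the aminomethyltransferase, with 11 reads in each TRP1high library, 12 in TRP1low with M9 and 0 in TRP1low with K8.

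The first comparison asks how stimulation by the M9 peptide differed from stimulation by K8 within each receptor. In TRP1high, 0 of the 10 enzymes were 2-fold higher and 0 were 2-fold lower with M9, against 5.14% and 4.73% of all genes tested (called at a log2 difference of at least 1 where 1 of the 2 libraries reached 10 normalized counts). The difference was below 0 for 9 of the 10, as it was for 53.3% of genes tested, with a median of -0.19 over the enzymes and -0.02 over all genes tested. Phgdh had the most negative difference among the abundant enzymes, at -0.40 (95% exact counting interval -0.42 to -0.37). Shmt2 (-0.33), Mthfd1l (-0.31) and Mthfd1 (-0.28) came next, while Psat1 (-0.05) and Psph (-0.02) were near level. Mthfd2 was the 1 enzyme above 0, at 0.09. Gldc had a difference of -0.89, with a counting interval of -1.70 to -0.17 that shows how few reads stand behind it.

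In TRP1low, 0 of the 10 enzymes were 2-fold higher and 0 were 2-fold lower with M9, against 7.67% and 7.43% of genes tested. The difference was above 0 for 9 enzymes, as it was for 51.8% of genes tested, and Gldc had 0 reads in both libraries. The median was 0.12 over the enzymes and 0.02 over all genes tested. Mthfd2 had the highest difference, at 0.38 (interval 0.34 to 0.43), followed by Mthfd1 at 0.33 (0.28 to 0.37), Psph at 0.29 (0.22 to 0.36) and Psat1 at 0.21 (0.19 to 0.24). Phgdh (0.01), Shmt2 (0.02) and Tyms (0.04) had intervals that took in 0.

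**Figure D2:**
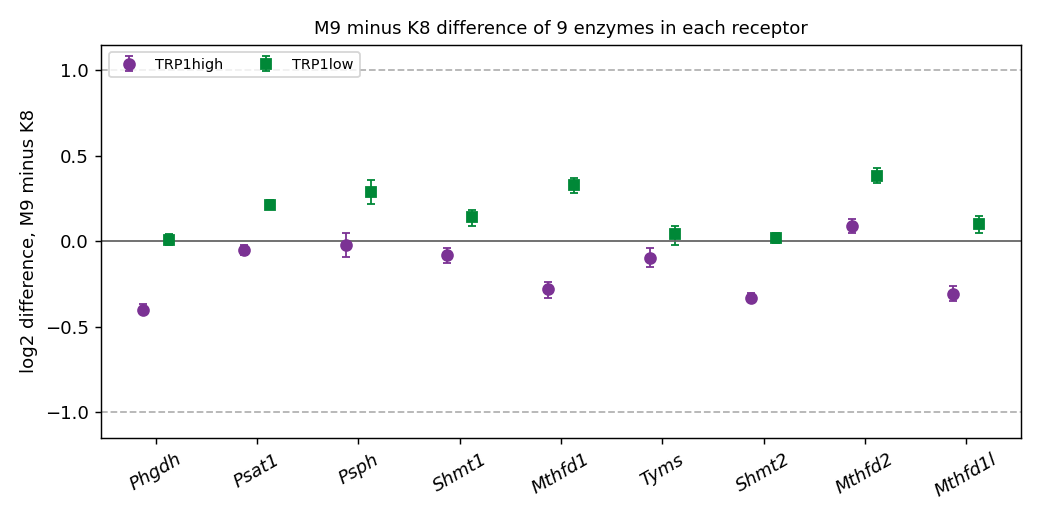
Log2 difference, M9 minus K8, of the 9 abundant enzymes (vertical axis) in TRP1high (circles) and in TRP1low (squares). Bars are 95% exact counting intervals, which leave out variation between cultures, dashed lines mark 2-fold, and each TRP1high point lies below the TRP1low point of the same enzyme.

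The peptide difference was more negative in TRP1high than in TRP1low for all 10 enzymes, an order found for 54.5% of genes tested and for 59.6% of the abundant ones defined above. For Gldc, with 0 reads in both TRP1low libraries, this order rests on its TRP1high difference alone. It was below 0 in TRP1high and above 0 in TRP1low for 8 enzymes, against 22.8% of genes tested and 23.7% of the abundant ones. The gap was -0.61 for Mthfd1, -0.41 for Phgdh and Mthfd1l, -0.35 for Shmt2, -0.31 for Psph and -0.30 for Mthfd2 on the log2 scale. The differences of the 2 receptors were 2-fold apart for 0 of the 10 enzymes, against 27.2% of genes tested. The order was not particular to the enzymes. In the list of 22 S phase and proliferation genes described below, the gap was below 0 for every gene, from -1.61 for Mki67 to -0.05 for Pcna. Most genes of purine and pyrimidine synthesis also had a gap below 0, with Dctd (0.27) and Prps2 (0.13) above 0 and Ppat at 0.00. With 4 libraries in 4 groups, no test of this gap was possible.

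The second comparison asks how TRP1high cells differed from TRP1low cells under the same peptide. With M9, Gldc was the 1 enzyme 2-fold higher in TRP1high and 0 were 2-fold lower, against 7.37% and 5.58% of genes tested. The other 9 were all below 0, as were 52.2% of genes tested, from -0.05 for Mthfd2 to -0.56 for Shmt1 (interval -0.61 to -0.52). The median of the 10 was -0.28, against -0.03 over all genes tested. With K8, Gldc was again the 1 enzyme 2-fold higher and 0 were 2-fold lower, against 10.6% and 8.35% of genes tested. Here 7 enzymes were above 0, as were 49.1% of genes tested, and 3 below, with a median of 0.14 against 0.00 over all genes tested. The 3 mitochondrial folate enzymes were at 0.29 for Mthfd1l, 0.25 for Mthfd2 and 0.16 for Shmt2, and the cytosolic enzymes Shmt1 and Tyms were at -0.34 and -0.27, while cytosolic Mthfd1 was at 0.27. The 4 comparisons share libraries in pairs, so their directions are not independent of each other.

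**Figure D3:**
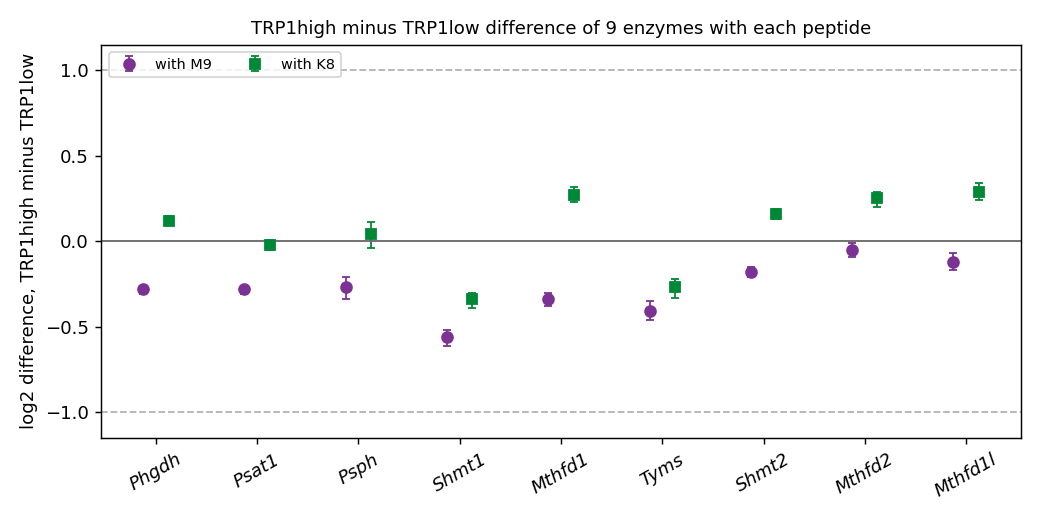
Log2 difference, TRP1high minus TRP1low, of the 9 abundant enzymes (vertical axis) with M9 (circles) and with K8 (squares). Bars are 95% exact counting intervals and dashed lines mark 2-fold; with M9 all 9 points lie below 0, from -0.05 to -0.56, and with K8 they spread from -0.34 to 0.29.

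The balance between the paired mitochondrial and cytosolic enzymes was read as a ratio of normalized counts per kilobase within each library, which does not depend on the scaling between libraries. Shmt2 exceeded Shmt1 by 3.06 and 3.62 in TRP1high with M9 and K8, and by 2.35 and 2.55 in TRP1low with M9 and K8. Both TRP1high libraries thus had the higher ratio. Mthfd2 exceeded Mthfd1 by 1.61 and 1.25 in TRP1high with M9 and K8 and by 1.32 and 1.27 in TRP1low with M9 and K8, which did not separate the receptors. Mthfd2 exceeded Mthfd2l, a related mitochondrial enzyme, by 196 and 163 in TRP1high with M9 and K8 and by 152 and 93.0 in TRP1low with M9 and K8.

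For the peptide over both receptors, limma with an additive model of receptor and peptide called 0 of 16100 genes at a Benjamini-Hochberg adjusted p of 0.05, and 1342 genes (8.34%) had an unadjusted p under 0.05. None of the 10 enzymes was among these, and Mthfd2 had the highest fitted difference, at 0.23 (SE 0.21, limma Benjamini-Hochberg adjusted p = 0.75). For the receptor over both peptides, limma called 0 genes and 2043 (12.7%) had an unadjusted p under 0.05, of which Gldc was the 1 enzyme (adjusted p = 0.34). Shmt1 was next, at -0.45 (SE 0.20, limma Benjamini-Hochberg adjusted p = 0.45). With the variance trend on in limma, 260 genes were called for the receptor and 5 for the peptide, with 0 enzymes among them. The adjusted p was then 0.057 for Gldc, 0.13 for Shmt1 and 0.21 for Tyms over the receptor. These models have 1 residual degree of freedom, and the residual is the disagreement between receptors or peptides, not a spread between cultures. The fitted size for Gldc depends on the added 1 and is no bound.

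Other genes of the pathway were taken from lists chosen by function. The 25 genes of purine and pyrimidine synthesis, some of which spend one-carbon units, were also close to level: 0 were 2-fold apart in any of the 4 comparisons. Their median range over the libraries was 0.40 log2 units, against 0.34 for the 9 enzymes other than Gldc. Atic reached a range of 0.92, against a highest of 0.56 among those 9. Over the 4 libraries 25 of 25 stayed within 2-fold, against 52.7% of genes tested and 82.8% of the abundant ones. The enzyme Cad, which opens pyrimidine synthesis, had the lowest peptide difference of that list in both receptors, at -0.67 in TRP1high and -0.52 in TRP1low, Dctd the highest in TRP1high (0.20) and Ctps2 the highest in TRP1low (0.40). TRP1high with M9 was the lowest library for 16 of these 25 genes and for 7 of the 10 enzymes, against 28.2% of genes tested and 36.6% of the abundant ones. Of the 22 S phase and proliferation genes, 16 were lowest there too. In that list Ccne2, a G1/S cyclin, had the lowest peptide difference in both receptors, at -0.87 in TRP1high and -0.46 in TRP1low, and Cdk1 the highest in TRP1high at 0.20. Mki67, which encodes the proliferation marker Ki-67, had a level of 12.47 and 12.54 in TRP1high with M9 and K8, and of 10.30 and 8.77 in TRP1low with M9 and K8, an order that Tyms did not show. Most of the list did not show it either, and 19 of the 22 stayed within 2-fold over the 4 libraries. With K8, 10 of the 22 were higher in TRP1high than in TRP1low, against 49.1% of genes tested. With M9, 18 were lower in TRP1high, against 52.2%.

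Among 19 measured folate enzymes and carriers outside the 10, the M9 library of TRP1high had 0 genes 2-fold higher and 1 gene 2-fold lower. The shares of all genes tested were 5.14% and 4.73%. That of TRP1low had 3 higher and 0 lower, against 7.67% and 7.43% of genes tested. Slc46a1, a proton-coupled folate transporter, was the lower one, at -1.63 in TRP1high and -0.65 in TRP1low. Aldh1l1, a cytosolic formyl-tetrahydrofolate dehydrogenase, was at 0.66 in TRP1high and 2.61 in TRP1low, where the K8 library held 3 reads. In TRP1low, Amt with M9 was 3.19-fold above a floor of 3 reads that stood for its 0 reads with K8. The exact counting interval of this log2 difference had a lower limit of 1.09. The third gene called there rested on more reads: Izumo1r, of the folate receptor family, had 1290 reads in TRP1low with M9 and 210 in TRP1low with K8, a log2 difference of 2.23 (interval 2.02 to 2.45), against 1657 and 1399 reads in TRP1high with M9 and K8.

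Of 18 measured genes of serine use, transsulfuration and the methionine cycle, 1 was 2-fold higher and 1 was 2-fold lower with M9 in each receptor. Over all genes tested, the shares higher and lower were 5.14% and 4.73% in TRP1high and 7.67% and 7.43% in TRP1low. The higher one was Cbs, cystathionine beta-synthase, which joins serine to homocysteine, at 2.10 in TRP1high and 3.92 in TRP1low. Its counts were 126 and 28 reads in TRP1high with M9 and K8 and 126 and 6 reads in TRP1low with M9 and K8. Ahcyl2 was the lower gene in TRP1high (-1.01) and Gclc, the catalytic subunit of the first enzyme of glutathione synthesis, in TRP1low (-1.07). Of 12 measured serine and neutral amino acid carriers, 0 were 2-fold apart between the peptides in either receptor, against the same shares of genes tested. Slc1a5, a neutral amino acid exchanger, had the highest difference in TRP1low, at 0.63, and Serinc3 the lowest, at -0.44, while Serinc5 (0.64) and Slc7a5 (-0.43) held those places in TRP1high.

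Part of the ATF4 and MYC list did differ between the libraries in which the enzymes were level. Of its 21 genes, 8 stayed within 2-fold over the 4 libraries, against 52.7% of genes tested. Among these 8 were the abundant genes Gars, Sars and Aars, with ranges of 0.27, 0.28 and 0.59 log2 units. ATF4 and MYC are transcription factors known to induce several of the enzymes in other settings. In this list, the M9 library of TRP1high had 2 genes 2-fold higher and 0 lower, against 5.14% and 4.73% of genes tested. That of TRP1low had 7 higher and 0 lower, against 7.67% and 7.43%. With K8, 11 of the 21 were 2-fold higher in TRP1high than in TRP1low and 0 were lower, against 10.6% and 8.35% of genes tested. TRP1low with K8 was the lowest library for 15 of the 21, against 2 of the 10 enzymes and 31.6% of genes tested. Atf4 itself had a level of 13.63 and 13.73 in TRP1high with M9 and K8, and of 13.23 and 12.46 in TRP1low with M9 and K8. Myc had a level of 13.90 and 13.76 in TRP1high with M9 and K8, and of 13.53 and 12.78 in TRP1low with M9 and K8, so that both regulators were lowest in TRP1low with K8. Atf3, a stress-induced factor, had 2961 and 842 reads in TRP1high with M9 and K8 and 934 and 9 in TRP1low with M9 and K8, and Vldlr, a lipoprotein receptor, had 49 and 22 reads in TRP1high with M9 and K8 and 78 and 0 in TRP1low with M9 and K8. Eif2ak3, the kinase PERK, had the lowest peptide difference of the list in both receptors, at -0.83 in TRP1high and -0.42 in TRP1low. TRP1low with K8 was also the library with the fewest reads and the most myeloid and erythroid transcript, and the part of these in the list's values was not tested.

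**Figure D4:**
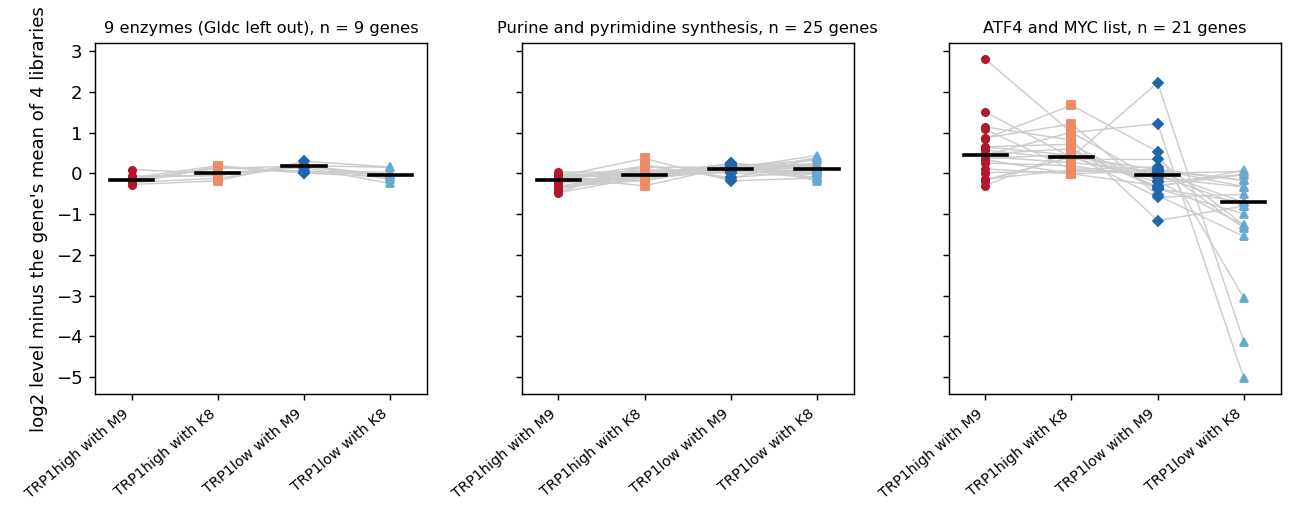
Level of each gene minus its own mean over the 4 libraries (vertical axis, log2) for 9 enzymes, 25 purine and pyrimidine synthesis genes and 21 genes of the ATF4 and MYC list, with 1 point per gene and library and black bars at the list's median. The medians of the enzymes lie between -0.16 and 0.18, and those of the ATF4 and MYC list at 0.45, 0.41, -0.04 and -0.71 in TRP1high with M9, TRP1high with K8, TRP1low with M9 and TRP1low with K8.

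Promoter sequences of the 10 enzymes (RefSeq, GRCm38.p6, 250 bases before to 50 after the start, 11 windows since Psat1 has 2) were searched on both strands for the letters CACGTG, the E-box that MYC can bind, for TGATGNAA, the core of the element that ATF4 can bind, and for CCAAT, the CCAAT box. None of these motifs overlaps another by its letters in the windows printed here. TGATGNAA was in 0 of the 11 windows and in 3.97% of all 32851 promoters of this length. CACGTG was in 1 window, that of Tyms, and in 7.15% of all promoters, while CCAAT was in 7 of 11 windows and in 37.4% of all promoters. Of the windows, 3 are printed 5′ to 3′ with each motif in capitals: Tyms for its E-box, Mthfd2 because it was the 1 enzyme with both M9 libraries above both K8 libraries, and Gldc because it was the 1 enzyme more than 2-fold apart between the receptors. They lie at chr5:30073576-30073875, chr6:83317555-83317854 and chr19:30175392-30175691 (minus strand each). A match of letters does not show that a factor binds. Nor does a lack of matches in 11 short windows show that a site is absent, since sequence outside them was not searched.
Tyms: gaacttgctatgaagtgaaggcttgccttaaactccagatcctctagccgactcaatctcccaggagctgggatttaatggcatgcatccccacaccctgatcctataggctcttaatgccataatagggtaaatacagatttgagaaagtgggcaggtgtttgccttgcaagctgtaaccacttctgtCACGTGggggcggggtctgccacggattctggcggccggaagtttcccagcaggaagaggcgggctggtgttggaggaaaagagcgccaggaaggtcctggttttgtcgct
Mthfd2: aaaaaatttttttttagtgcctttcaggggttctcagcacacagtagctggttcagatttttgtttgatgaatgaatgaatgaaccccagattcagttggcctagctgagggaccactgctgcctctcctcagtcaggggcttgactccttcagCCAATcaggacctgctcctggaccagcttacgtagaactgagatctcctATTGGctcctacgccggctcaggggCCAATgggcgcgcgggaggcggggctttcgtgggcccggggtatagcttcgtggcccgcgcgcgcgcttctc
Gldc: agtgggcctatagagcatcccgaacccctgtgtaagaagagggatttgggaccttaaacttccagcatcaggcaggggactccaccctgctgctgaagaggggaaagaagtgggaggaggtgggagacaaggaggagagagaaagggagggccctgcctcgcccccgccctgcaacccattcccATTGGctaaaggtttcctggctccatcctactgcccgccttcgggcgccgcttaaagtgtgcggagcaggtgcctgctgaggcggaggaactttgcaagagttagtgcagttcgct

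The genes whose profile over the 4 libraries was most like that of the enzymes were found by the root mean square distance between log2 levels, each centred on its own mean, among 9210 other genes whose mean reached 200 normalized counts. For Phgdh these were Cenpn (distance 0.010), Btbd7, Usp28, Bcl7b and Akap1 (0.024). For the mean of the 10 enzymes they were Pik3cd (0.011), Asb6, Arhgap17, Gmeb1 and Hnrnpa0 (0.028), a mean that Gldc pulls toward the TRP1high libraries. Without Gldc, a choice made after its values were seen, they were Rpn1 (0.0066), Lzic, Mrpl2, Tesk1 and Tor1a (0.022). With 4 libraries to compare, many genes come this close.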

How the data were processed

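RNA sequencing of sorted T cells was deposited by the authors as 1 table per library of log2 normalized counts, per the file headers. The smallest value is exactly 0, so the values were read as log2 of a normalized count plus 1. Per the submitters' processing notes, the tools were Salmon 0.8.2 and DESeq2 1.20.0 and the build was mm10. Settings, annotation and filters were not given in the sources used here.

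Low values lie at multiples of 1 step per library (0.989, 0.998, 1.05 and 1.37 normalized counts in TRP1high with M9, TRP1high with K8, TRP1low with M9 and TRP1low with K8), taken as the worth of 1 read. Of values up to 50, 56.2% to 56.4% per library came within 0.01 of a whole read, so whole reads could not be recovered in general and no count model was run. Estimated reads were rounded for exact (Clopper-Pearson) 95% counting intervals. These and the floor of 3 reads cover counting error only. Genes whose mean reached 1 normalized count were tested (16100, after 2 rows with a repeated name were left out). Single comparisons are differences between 2 libraries with no p-value. limma 3.58.1 (R 4.3.3; trend and robust off) fitted receptor and peptide additively. In simulated data of 15989 genes with 200 changed 8-fold, its estimates had the right direction for 200 (medians 2.97 and -3.01) but it called 0, and 184 with the trend on, so a count of 0 calls in the main fit says nothing of the absence of change. The labels give no replicate numbers. Exon lengths and positions are from GENCODE M21 (GRCm38), which matched 99.0% of rows, with Python 3.11.15 and scipy 1.17.1.

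The enzymes and gene lists were chosen with earlier results of these data known. Genes named outside the 10 are those with the highest and lowest peptide difference of each list in each receptor and those 2-fold apart the same way in both; Atf4, Myc and Gcsh were added for their roles, and Izumo1r, Cd22 and Tcrg-C1 after their values were seen. Shmt1 overlaps Smcr8 (log2 10.42 and 10.46 in TRP1high with M9 and K8, 10.34 and 10.32 in TRP1low with M9 and K8) on the other strand, and Phgdh and Tyms have named pseudogene copies, whose share of their reads was not analysed here. The values of 1 gene of the folate list are not reported here.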

Additional observations from a re-analysis of the deposited data

Results flagged for a closer look

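The direction of the peptide difference was opposite in the 2 receptors, or the direction of the receptor difference opposite with the 2 peptides, for 9 enzymes. Each receptor and each peptide has 1 pair of libraries, so an opposite direction needs only 2 single differences, some of them within counting error of 0, and the difference between them was not tested. The difference of the M9 minus K8 differences, TRP1high minus TRP1low, equals that of the receptor differences, M9 minus K8. It was -0.61 for Mthfd1, -0.41 for Phgdh, -0.41 for Mthfd1l, -0.35 for Shmt2, -0.31 for Psph, -0.30 for Mthfd2, -0.26 for Psat1, -0.22 for Shmt1 and -0.13 for Tyms. For Mthfd1 both pairs had counting intervals away from 0, with -0.28 (-0.33 to -0.24) in TRP1high and 0.33 (0.28 to 0.37) in TRP1low.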

How the results depend on the processing

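Of 48 recomputed counts and medians, 40 stayed within the limits set for the same result and 8 moved. With a 1.5-fold limit, 1 enzyme (Gldc) was called between M9 and K8 in TRP1high, against 0. With a minimum of 200 normalized counts in place of 10, 0 enzymes were called between TRP1high and TRP1low with K8 and 0 with M9, against 1 each, since Gldc was then left out. Rescaling the libraries by their median ratio gave a median receptor difference of 0.17 with K8, against 0.14, and of -0.21 with M9, against -0.28. limma called 5 genes for the peptide and 260 for the receptor with the variance trend on, and 32 for the receptor with 10 added before the logarithm, against 0 each. Of 120 values of single enzymes, from the additive fit or from the pair left without 1 library, 18 moved. Among them were Shmt2 and Mthfd1, whose receptor differences of -0.01 and -0.03 became 0.04 and 0.01 after rescaling. Values without 1 library counted as moved only past 1 SE of the fit, so some changes of sign were not counted. For example, the peptide difference of Phgdh went from -0.19 to 0.01, and that of Mthfd1l from -0.10 to 0.10, without TRP1high with M9. Leaving out 1 library leaves no residual degrees of freedom, so no count of calls could be had, and the peptide difference of Mthfd1 was 0.33 without either TRP1high library and -0.28 without either TRP1low library. No paired analysis was possible because each group is 1 library and the labels give no replicate numbers. Depth limits Gldc and other named genes with few reads in a library, such as Amt, Aldh1l1, Vldlr, Cbs, Atf3 and Slc46a1. It does not limit the 9 abundant enzymes.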
